A study of Sus scrofa with 23 samples.

Results

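The genes described here were 9 genes of the red cell lineage and its hormone: the adult beta-globin gene HBB, the embryonic globin genes HBE1 and HBZ, the heme synthesis gene ALAS2, the membrane gene RHAG, the erythroid nuclear genes HEMGN, GATA1 and KLF1, and the erythropoietin gene EPO. They were chosen by symbol from the table that assigns transcripts to genes, and the estimated counts of all transcripts of a symbol were summed. All 9 were present among 26687 annotated genes, and 7 of the 9 passed the filter on low counts that left 20921 genes for testing. KLF1 and EPO did not pass it.

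Red cells are made from precursors that switch on globin, heme and membrane genes under the transcription factors GATA1 and KLF1, and that keep globin RNA for a short time after losing the nucleus. Embryonic red cells use epsilon-globin (HBE1) and zeta-globin (HBZ), which give way before birth to the adult-type beta-globin and alpha-globin chains. Interstitial fibroblasts of the kidney cortex are the main source of erythropoietin after birth and make it when oxygen is low, whereas the fetal liver is a main source earlier.

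The study asked how loss of CFTR, the anion channel gene mutated in cystic fibrosis, affects the kidney of newborn pigs. Total RNA depleted of ribosomal RNA was sequenced from kidney cortex of 23 newborn pigs: 6 wild-type pigs (WT), 6 heterozygous CFTR+/- pigs (HET) and 11 CFTR-/- pigs (CF), with WT and HET joined as non-CF (12 pigs) in the main comparison. The piglets came from matings between CFTR+/- animals and were studied on the day of birth, and no treatment was given in the labels. The labels gave neither litter nor sex, and each library was named by its genotype label and pig number, as in CF 5. Because whole cortex was sequenced, fewer cells of a type and less RNA per cell cannot be told apart.

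Each library held between 32901281 and 52952273 estimated counts (median 44639997), so that 3 counts corresponded to 0.0567 to 0.0912 CPM (counts per 1000000 counts of the library, here without further scaling). All other CPM values are per effective library size, that is, scaled by the trimmed mean of M values (TMM), and can differ from the unscaled ones. CFTR, the targeted gene, was at 0.263 to 0.729 TPM (transcripts per 1000000 transcripts, a level per length) in WT, 1.88 to 3.15 TPM in HET and 2.28 to 5.28 TPM in CF libraries. Its RNA was therefore higher, not lower, with disrupted alleles (log2 fold change of CF against WT 3.14, SE 0.188, edgeR quasi-likelihood test, adjusted p = 1.23e-10), so the genotypes below are those given by the labels. In a multidimensional scaling plot of the libraries, the second axis held 10.6% of the variance. It divided the libraries by pig number within CF (pigs 1 to 11) and within non-CF (pigs 12 to 23). Pigs 1 to 6 and 12 to 18 (13 libraries) lay on the same side and were called earlier-numbered. Pigs 7 to 11 and 19 to 23 (10 libraries) lay on the other side and were called later-numbered. Earlier and later thus refer to the order within CF and within non-CF. The labels name no batch, and both sets held all genotypes. Summed markers of cortical tubule and glomerulus, among them LRP2, CUBN and NPHS1, were at 1019 to 1638 TPM in all libraries, and the 3 annotated markers of adrenal cortex at 0.80 to 2.0 TPM.

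The globin members lay in 2 clusters of the Sscrofa11.1 assembly, the build of the files. HBB (chr9:4800683-4801941, minus strand, 3 exons) and HBE1 (chr9:4818206-4820243, minus strand, 3 exons) flanked a gene annotated as beta-like, LOC100515788 (chr9:4808580-4809808). HBZ (chr3:41490758-41492883, minus strand, 3 exons) lay beside the alpha-globin genes LOC100737768 (chr3:41486699-41487559) and LOC110259958 (chr3:41482353-41483564). The LOC genes were looked up by their product names after the data were seen. The coding bases of exon 1 are shown because they tell how far the counts of these paralogs can be kept apart. Capitals mark bases that differ from HBB in the beta family and from LOC100737768 in the alpha family (RefSeq annotation, Sscrofa11.1).
HBB: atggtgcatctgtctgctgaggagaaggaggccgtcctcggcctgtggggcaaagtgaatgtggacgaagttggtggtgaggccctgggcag
LOC100515788: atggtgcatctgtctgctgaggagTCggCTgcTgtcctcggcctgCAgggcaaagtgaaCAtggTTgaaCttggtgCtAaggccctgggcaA
HBE1: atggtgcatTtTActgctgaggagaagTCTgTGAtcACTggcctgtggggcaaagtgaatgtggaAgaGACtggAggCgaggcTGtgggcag
LOC100737768: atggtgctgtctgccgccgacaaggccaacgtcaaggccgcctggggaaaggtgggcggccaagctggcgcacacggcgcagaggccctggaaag
HBZ: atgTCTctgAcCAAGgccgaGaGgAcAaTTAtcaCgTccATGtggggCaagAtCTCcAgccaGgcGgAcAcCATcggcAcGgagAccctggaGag

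Over these 92 bases HBE1 differed from HBB at 20 positions and the beta-like gene at 15, and over 95 bases HBZ differed from alpha-globin at 37. The transcript of HBB shared 234 of its 466 words of 31 bases with the beta-like gene LOC100515788 and 3 of 466 with HBE1. Reads of HBB and the beta-like gene can therefore be exchanged between them in part, whereas HBE1 was almost wholly separable. All 578 words of LOC100737768 occurred in LOC110259958, so these alpha genes were summed and called alpha.

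Expressed per length, the levels of the members spanned a wide range. The median over the 23 libraries was 304 TPM for HBB, 11.9 TPM for HBE1, 3.82 TPM for HEMGN, 2.03 TPM for ALAS2, 0.803 TPM for RHAG, 0.294 TPM for GATA1, 0.267 TPM for HBZ, 0.0642 TPM for EPO and 0.0161 TPM for KLF1. HBB exceeded every other member in every library. Of the neighbours in this order, HBB and HBE1 (0.00 to 63.8 TPM) had separate ranges over the libraries, as had ALAS2 (1.29 to 5.31 TPM) and RHAG (0.446 to 1.22 TPM). All other neighbours overlapped, with HEMGN at 2.58 to 5.16 TPM, GATA1 at 0.107 to 0.559 TPM, HBZ at 0.0917 to 0.444 TPM, EPO at 0.00 to 0.508 TPM and KLF1 at 0.00 to 0.122 TPM. HBB and alpha together made up 0.0359% to 0.178% of all TPM.

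HBB, the beta chain of adult hemoglobin, was the most abundant member and did not differ by genotype beyond the spread between pigs. In WT libraries it was at 60.3 (WT 18), 76.7 (WT 17), 86.3 (WT 23), 87.0 (WT 16), 101 (WT 22) and 182 CPM (WT 12). In HET libraries the lowest, median and highest values were 102, 134 and 172 CPM, and in CF libraries 63.2, 105 and 410 CPM. The groups overlapped, and 1 library, CF 1, stood far above the rest with 16891 counts of HBB. The mean was 131 ± 98.4 CPM (SD, n = 11) in CF and 118 ± 40.2 CPM (SD, n = 12) in non-CF libraries. The difference did not exceed the spread between libraries (log2 fold change 0.15, SE 0.261, 95% interval -0.38 to 0.69, edgeR adjusted p = 0.863), and without CF 1 the log2 fold change of HBB turned to -0.19 (range of adjusted p over single libraries left out 0.689 to 0.95). All 6 HET libraries lay above the WT median of HBB, with a log2 fold change of 0.46 (SE 0.357, adjusted p = 0.765).

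**Figure D1:**
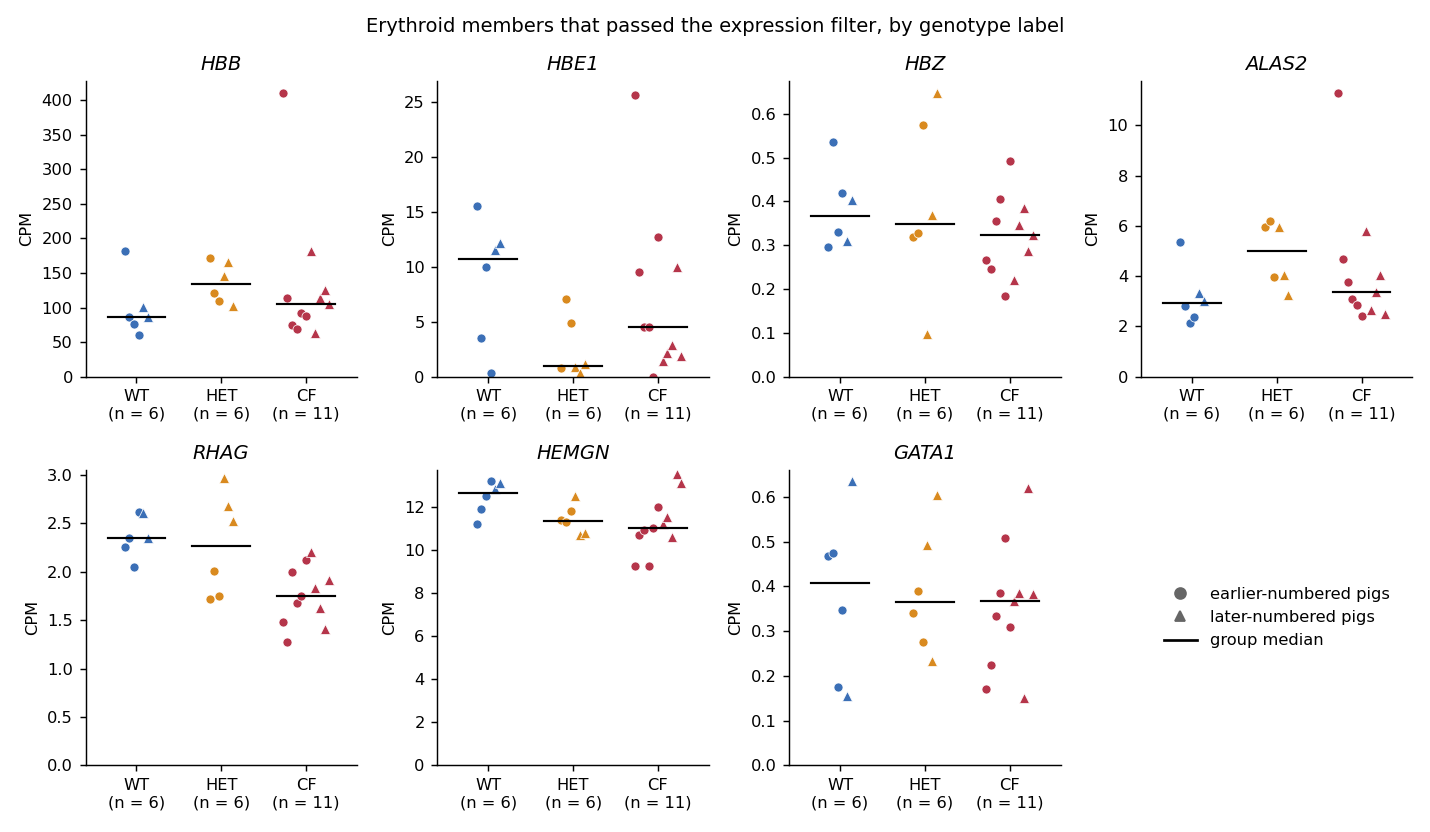
Level of the 7 tested members (CPM, scaled by the trimmed mean of M values, linear axis from 0) in each library by genotype label; circles are earlier-numbered and triangles later-numbered pigs, and bars are group medians. HBB and ALAS2 share the high library CF 1, whereas RHAG lies below the non-CF median in 11 of 11 CF libraries.

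The globin chains kept a narrow ratio within libraries. The ratio of alpha to HBB, both in TPM, had a median of 0.718 and ran from 0.560 (CF 11) to 1.01 (CF 3), while HBB itself varied 6.81-fold in CPM. The genes whose levels followed HBB most closely over the 23 libraries were the beta-like LOC100515788 (r = 0.95) and the alpha gene LOC100737768 (r = 0.94), followed by CREM, ELF3 and JUND (r = 0.81 each). Without WT 12 and CF 1, the libraries farthest from the median of HBB, r fell to 0.62 for CREM, 0.56 for ELF3 and 0.55 for JUND but was 0.91 for LOC100515788 and 0.88 for LOC100737768. LOC100515788 shares words with HBB, as given above.

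HBE1, the epsilon chain of embryonic hemoglobin, varied more than any other member past the filter (coefficient of variation 102% of the mean CPM, against 58.5% for HBB). In WT libraries HBE1 had 14 (WT 18), 171 (WT 16), 444 (WT 22), 452 (WT 17), 575 (WT 23) and 628 counts (WT 12). In HET libraries it had 18 (HET 20), 37 (HET 19), 38 (HET 13), 52 (HET 21), 195 (HET 15) and 347 counts (HET 14). In CF libraries the lowest, median and highest counts were 0 (CF 5), 205 and 1054 (CF 1). WT 18 and CF 5 had next to none although both had ample HBB (2443 and 3971 counts), and the low HBE1 libraries were found under every label.

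Taken as a share of the summed HBE1 and HBB counts, HBE1 was 0.570% in WT 18 (95% Wilson interval 0.34% to 0.954%) but 12.4% in WT 23 (11.5% to 13.3%) and 12.6% in CF 6 (11.6% to 13.7%). In CF 5 the share was 0 of 3971 counts, with a 95% Wilson upper limit of 0.0966% (the limit of 3 counts that a count of 0 allows is 0.0755%). In HET libraries the share ran from 0.210% (HET 20) to 5.56% (HET 14). These intervals cover counting error only, and they are far narrower than the spread between pigs of the same label.

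**Figure D2:**
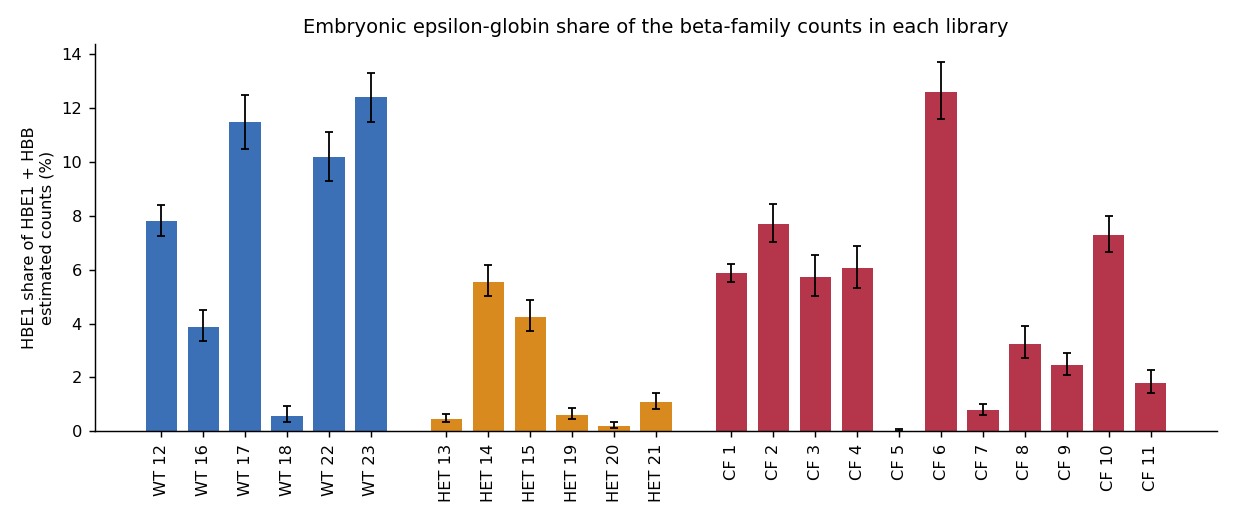
Share of HBE1 in the summed estimated counts of HBE1 and HBB in each library (percent, linear axis from 0), grouped by genotype label, with 95% Wilson intervals that cover counting error only. Shares run from 0.00% in CF 5 to 12.6% in CF 6, and every HET library lies at or below 5.56%.

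By genotype, HBE1 was at 8.82 ± 5.72 CPM in WT (SD, n = 6), 2.53 ± 2.78 CPM in HET (SD, n = 6) and 6.84 ± 7.43 CPM in CF libraries (SD, n = 11). All 6 HET libraries lay below the WT median, and the log2 fold change of HBE1 was -1.80 (SE 0.874, 95% interval -3.60 to 0.00, unadjusted p = 0.0497), which did not pass adjustment over all genes (edgeR adjusted p = 0.624). Against non-CF libraries, CF libraries differed by 0.27 on the log2 scale (SE 0.646, adjusted p = 0.913), with a sign that turned to -0.19 without CF 1.

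Set against the adult chain within each library, the log2 ratio of HBE1 to HBB in TPM averaged -4.10 ± 1.77 in WT (SD, n = 6), -6.51 ± 1.89 in HET (SD, n = 6) and -5.04 ± 2.12 in CF libraries (SD, n = 11). For CF 5 the limit of 3 counts stood in for 0. The difference of HET from WT was -2.42 on this scale (SE 1.06, two-sided exact permutation test, p = 0.0455), and the adjusted value over the 8 ratio tests was 0.364. This HBE1 to HBB difference was -0.79 in earlier-numbered pigs (permutation test, adjusted p = 0.924) and -4.59 in later-numbered pigs (permutation test, adjusted p = 0.267). The later-numbered pigs held 3 HET and 2 WT libraries, too few for this test to reach 0.05 whatever the values. HET 19, HET 20 and HET 21 were at -7.34, -8.89 and -6.51, and WT 22 and WT 23 at -3.15 and -2.83. CF differed from WT by -0.94 (SE 1.02, exact permutation test, p = 0.394, adjusted p = 0.631), with 10 of 11 CF libraries below the WT median. With single libraries left out this difference ran from -1.61 (without WT 18) to -0.41 (without CF 5). CF differed from WT by -0.15 and -2.34 within the earlier- and later-numbered pigs, the latter against 2 WT libraries. CF differed from HET by 1.48 (SE 1.04, exact permutation test, p = 0.177, adjusted p = 0.580), and by 0.65 and 2.26 within the sets. The difference of CF from non-CF was 0.27 (SE 0.893, permutation test, p = 0.767, adjusted p = 0.838).

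HBZ, the zeta chain of embryonic hemoglobin, was close to the detection limit, with 4 (HET 19) to 30 counts (HET 21) per library. It was at 0.382 ± 0.0905 CPM in WT (SD, n = 6), 0.389 ± 0.197 CPM in HET (SD, n = 6) and 0.319 ± 0.0897 CPM in CF libraries (SD, n = 11). The log2 fold change of HBZ for CF against non-CF was -0.27 (SE 0.219, edgeR adjusted p = 0.642), within the spread. At a median of 16 counts, counting error alone gives 25.0% of the value, against a coefficient of variation of 35.2% over libraries. Of its 1462 31-base words, 24 also occurred in exons of 54 other genes, and its counts were not whole numbers in any library. The log2 ratio of HBZ to HBB did not differ in any of the 4 comparisons (adjusted p 0.580 to 0.838). HBE1 and HBZ did not vary together (r = 0.21, adjusted p = 0.530, 23 libraries).

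ALAS2, the erythroid enzyme of the first step of heme synthesis, followed HBB. In WT libraries it was at 2.12 (WT 17), 2.37 (WT 18), 2.82 (WT 16), 3.01 (WT 23), 3.33 (WT 22) and 5.34 CPM (WT 12), the same library that was highest for HBB. In CF libraries the lowest, median and highest values were 2.40, 3.36 and 11.3 CPM, the last in CF 1. Over the 23 libraries the log2 CPM of ALAS2 and HBB had r = 0.88 (permutation test, p = 1.00e-05, the smallest that 100000 permutations can give, adjusted p = 0.000210 over 21 pairs of members) and rho = 0.83 (permutation test, adjusted p = 0.000420). Without WT 12 and CF 1 r was 0.78, and it was 0.90 in earlier-numbered and 0.82 in later-numbered pigs. This was the only one of the 21 pairs past the threshold, and ALAS2 counts stayed between 2.37 and 5.14 per 100 HBB counts.

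ALAS2 did not differ by genotype beyond its spread. The log2 fold change was 0.07 for CF against non-CF (SE 0.242, edgeR adjusted p = 0.947) and turned to -0.20 without CF 1. All 6 HET libraries lay above the WT median of ALAS2, as they did for HBB, with a log2 fold change of 0.63 (SE 0.320, 95% interval -0.03 to 1.29, adjusted p = 0.641).

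**Figure D3:**
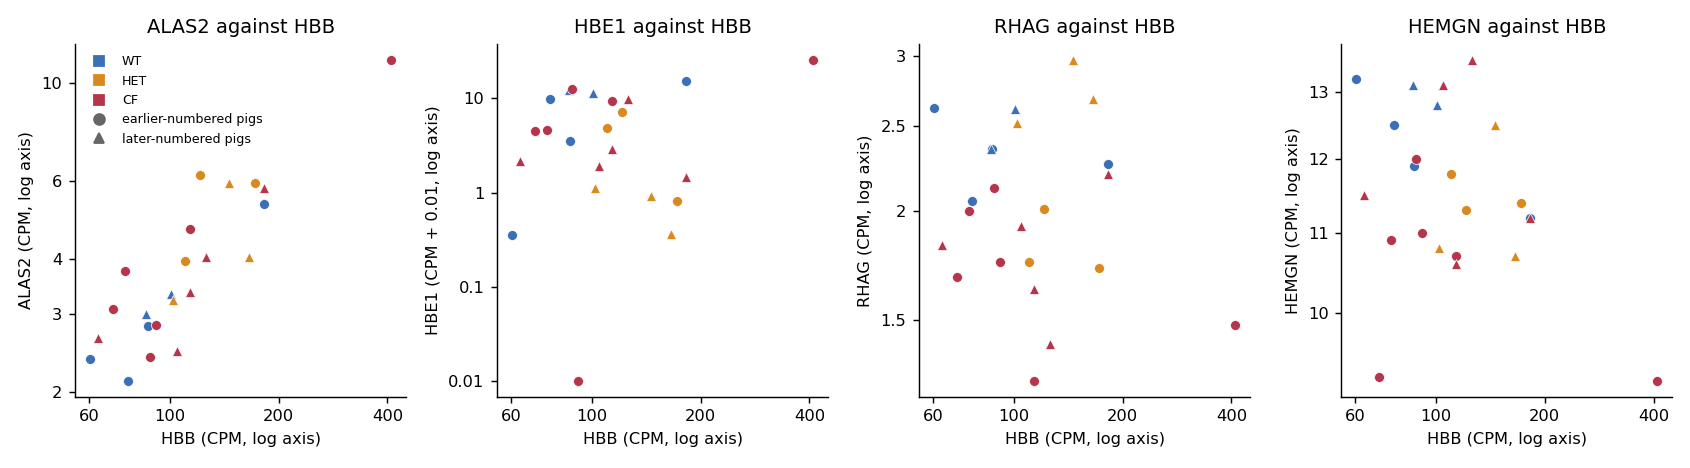
ALAS2, HBE1, RHAG and HEMGN against HBB in the 23 libraries (CPM, both axes logarithmic; 0.01 CPM was added to HBE1 so that CF 5, at 0 counts, can be drawn). ALAS2 rises with HBB (r = 0.88), whereas HBE1 (r = 0.18), RHAG (r = -0.16) and HEMGN (r = -0.37) did not pass the test.

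The bases just upstream of the annotated starts are shown for members that varied together (HBB and ALAS2, with alpha) and for members that did not (HBE1, RHAG, HEMGN). Each is 120 bases long on the gene's strand and ends at the base before the annotated start (Sscrofa11.1). Capitals mark, on either strand, the motif AGATAA (a form of the GATA site), CACCC (bound by factors of the KLF family), CCAAT (the CCAAT box), TATAAA (the TATA box) and ACGTG (the core of the site of hypoxia-inducible factors).
HBB (chr9:4801942-4802061, minus strand): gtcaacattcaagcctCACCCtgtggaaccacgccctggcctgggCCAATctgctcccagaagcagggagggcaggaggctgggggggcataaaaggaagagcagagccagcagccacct
LOC100737768 (chr3:41487560-41487679, minus strand): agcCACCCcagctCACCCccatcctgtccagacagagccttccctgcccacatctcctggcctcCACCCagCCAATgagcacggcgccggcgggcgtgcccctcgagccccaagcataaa
ALAS2 (chrX:47896042-47896161, minus strand): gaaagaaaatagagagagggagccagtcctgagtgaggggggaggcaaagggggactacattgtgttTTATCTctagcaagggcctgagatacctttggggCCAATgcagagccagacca
HBE1 (chr9:4820244-4820363, minus strand): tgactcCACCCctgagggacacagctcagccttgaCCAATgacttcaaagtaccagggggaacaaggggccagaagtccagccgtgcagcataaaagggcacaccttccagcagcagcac
RHAG (chr7:43730945-43731064, minus strand): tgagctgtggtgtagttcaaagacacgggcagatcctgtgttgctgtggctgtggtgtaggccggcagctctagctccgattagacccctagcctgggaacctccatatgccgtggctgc
HEMGN (chr1:239834569-239834688, minus strand): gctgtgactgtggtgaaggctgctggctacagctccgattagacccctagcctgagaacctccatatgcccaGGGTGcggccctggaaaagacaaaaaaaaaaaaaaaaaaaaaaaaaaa

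In 250 bases upstream, HBB, HBE1, ALAS2 and the alpha gene each held CCAAT, a motif found in 31.9% of 19559 such windows of protein-coding genes, and CACCC, found in 53.9%. CACCC was also in the windows of HEMGN and GATA1, and CCAAT in that of KLF1. AGATAA was present in ALAS2 and HBZ and in 8.08% of all windows, and the exact letters TATAAA, in 9.77%, were in no member. The HBB, HBE1 and alpha sequences shown hold cataaa, which this search did not count, so it does not tell whether a variant TATA box is present. ACGTG was in HBE1 alone among the members and in 18.7% of windows. The RHAG window was 94.8% repeat-masked in the assembly and the HEMGN and HBZ windows 100%, against 11.2% for HBB and 13.2% for ALAS2. These matches describe letters in the windows and were not tested for binding.

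RHAG, the Rh-associated glycoprotein of the red cell membrane, was the member with the smallest p for CF against non-CF (chr7:43704152-43730944, minus strand, 10 exons). In WT libraries it was at 2.05 (WT 17), 2.26 (WT 12), 2.35 (WT 16), 2.35 (WT 23), 2.61 (WT 22) and 2.62 CPM (WT 18). In HET libraries it was at 1.72 (HET 13), 1.75 (HET 15), 2.01 (HET 14), 2.52 (HET 21), 2.68 (HET 20) and 2.97 CPM (HET 19). In CF libraries the lowest, median and highest values were 1.28 (CF 2), 1.75 and 2.20 CPM (CF 7). CF overlapped both other groups, but 11 of 11 CF libraries lay below the non-CF median of RHAG. CF libraries were at 1.75 ± 0.295 CPM (SD, n = 11) and non-CF libraries at 2.32 ± 0.384 CPM (SD, n = 12), a log2 fold change of -0.41 (SE 0.110, 95% interval -0.63 to -0.18, unadjusted p = 0.00105).

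Adjusted over all genes, RHAG did not pass the threshold (edgeR adjusted p = 0.0851). DESeq2 alone placed it past (adjusted p = 0.0295), while limma-voom gave 0.106 and an exact Mann-Whitney test 0.117. Against WT the log2 fold change of RHAG was -0.44 (SE 0.134, adjusted p = 0.121) and against HET -0.38 (SE 0.134, adjusted p = 0.364), and HET and WT differed by -0.06 (SE 0.152, adjusted p = 0.944). Within earlier-numbered pigs it was -0.29 (SE 0.157, adjusted p = 0.610) and within later-numbered pigs -0.54 (SE 0.153, adjusted p = 0.0816), and these did not differ by the interaction test (adjusted p = 0.717). The HET libraries of RHAG fell apart by set, with 1.72 to 2.01 CPM in HET 13 to 15 and 2.52 to 2.97 CPM in HET 19 to 21.

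RHAG did not follow the globin RNA (r = -0.16 with HBB, adjusted p = 0.627, and -0.21 with ALAS2, adjusted p = 0.530). The genes most like RHAG over the 23 libraries were LOC102158889 (r = 0.80), BCL2 (r = 0.76), MIR9831 (r = 0.75), GAS2L3 (r = 0.73) and LOC102167454 (r = 0.73), none of them in the lists of red cell genes. Of the listed genes, the r with RHAG was highest for PTPRC of leukocytes (0.66), SLC12A3 of the distal tubule (0.62), the transcription factor LYL1 (0.61) and TFRC (0.57), and it was 0.52 for KDR of endothelium. In CF against non-CF, SLC12A3 was at -0.64 (SE 0.172, edgeR adjusted p = 0.0843), PTPRC at -0.32 (SE 0.167, adjusted p = 0.397) and KDR at -0.26 (SE 0.0838, adjusted p = 0.149) on the log2 scale. All 11 CF libraries lay below the non-CF median of SLC12A3 and of TFRC, as they did for RHAG. The part of these markers in the RHAG difference was not tested. Its single annotated transcript was 13% repeat-masked, 12 of its 2894 31-base words occurred in exons of 194 other genes, and its counts (57 to 138) were not whole numbers in any library. The part of shared words in the RHAG counts was not tested.

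HEMGN, a nuclear protein of erythroid precursors (chr1:239790503-239834568, minus strand, 7 transcripts), was nearly constant. It ran from 9.23 (CF 1) to 13.5 CPM (CF 10), a coefficient of variation of 9.97%, and was at 12.5 ± 0.752 CPM in WT (SD, n = 6), 11.4 ± 0.677 CPM in HET (SD, n = 6) and 11.2 ± 1.33 CPM in CF libraries (SD, n = 11). CF 1, the library with the most HBB, had the least HEMGN. The log2 fold change was -0.09 for CF against non-CF (SE 0.0661, 95% interval -0.23 to 0.04, edgeR adjusted p = 0.572) and -0.16 for CF against WT (SE 0.0782, adjusted p = 0.370). All 6 HET libraries lay below the WT median of HEMGN as well, at a log2 fold change of -0.13 (SE 0.0893, adjusted p = 0.745). The HEMGN transcripts were 23.3% to 30.4% repeat-masked, and up to 35 of their 31-base words occurred in exons of 559 other genes.

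GATA1, the transcription factor that erythroid and megakaryocytic precursors share, had 6 (WT 22) to 30 counts (WT 23) per library, so that both extremes fell under the WT label. It was at 0.376 ± 0.187 CPM in WT (SD, n = 6), 0.389 ± 0.139 CPM in HET (SD, n = 6) and 0.349 ± 0.138 CPM in CF libraries (SD, n = 11). The log2 fold change of GATA1 for CF against non-CF was -0.14 (SE 0.249, 95% interval -0.65 to 0.38, edgeR adjusted p = 0.874), an interval too wide to tell apart a moderate difference in either direction from none.

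KLF1, the transcription factor that switches on the adult beta-globin gene, had 0 to 9 counts per library, at or under the limit of 3 counts in 20 of 23 libraries. WT libraries had 1 (WT 12), 2 (WT 16), 0 (WT 17), 1 (WT 18), 1 (WT 22) and 0 counts (WT 23). HET libraries had 4 (HET 13), 1 (HET 14), 1 (HET 15), 3 (HET 19), 9 (HET 20) and 9 counts (HET 21). CF libraries had 0 counts in 7 of 11 and at most 2. KLF1 above 3 counts was thus seen in HET 13, HET 20 and HET 21 alone.

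Because KLF1 was outside the tested genes, its CPM was compared by permutation, in a test added after the data were seen and run 8 times for KLF1 and EPO without adjustment of these p-values. CF lay below HET (0.0110 ± 0.0160 against 0.0956 ± 0.0738 CPM, SD, n = 11 and 6, two-sided exact permutation test, p = 0.00105), and 11 of 11 CF libraries lay below the HET median. Leaving out single libraries gave p from 0.000687 to 0.00298, and within the earlier- and later-numbered pigs p was 0.0119 and 0.0179 by the exact permutation test. In an edgeR fit without the filter no KLF1 difference passed adjustment over all genes, with an adjusted p of 0.182 for CF against HET (log2 fold change -2.89, SE 0.662), 0.555 for HET against WT, 0.153 for CF against non-CF and 0.760 for CF against WT. HET lay above WT (exact permutation test, p = 0.0281), with p = 0.0541 at most when single libraries were left out. Within the earlier- and later-numbered pigs p was 0.40 and 0.20 by the exact permutation test. The later-numbered pigs held 3 HET and 2 WT libraries, too few for this test to reach 0.05. CF against non-CF differed by -0.0465 CPM (permutation test, p = 0.0148, within the sets exact permutation p = 0.00466 and 0.127). CF against WT differed by -0.00842 CPM (exact permutation test, p = 0.358), and within the earlier- and later-numbered pigs by -0.0226 CPM (p = 0.0333) and 0.0112 CPM (p = 0.524) in the exact permutation test, which is opposite in sign. CF and WT libraries held 0 to 2 counts of KLF1 each.

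EPO (chr3:8620508-8622936, plus strand, 5 exons) was measured at 0 to 29 counts per library. WT libraries had 3 (WT 12), 3 (WT 16), 7 (WT 17), 2 (WT 18), 4 (WT 22) and 3 counts (WT 23). HET libraries had 6 (HET 13), 1 (HET 14), 0 (HET 15), 14 (HET 19), 23 (HET 20) and 9 counts (HET 21). In CF libraries the lowest, median and highest counts were 0 (CF 8), 2 and 29 (CF 9). High EPO was found in single HET and CF libraries, and in none of the WT libraries.

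EPO means were 0.126 ± 0.181 CPM in CF (SD, n = 11) and 0.137 ± 0.134 CPM in non-CF libraries (SD, n = 12), a difference within the spread (permutation test, p = 0.879, edgeR without the filter adjusted p = 0.966). The EPO libraries with the most counts were CF 9, HET 20, HET 19, CF 7 and HET 21, all later-numbered and all on the same side of the first scaling axis (coordinates -0.829 to -0.675). The median of EPO was 7.50 counts in the 10 later-numbered libraries and 2 in the 13 earlier-numbered ones, a difference given as a description. The part of the set in the EPO values was not tested. EPO did not differ past the threshold in the pairwise comparisons either. The difference was 0.105 CPM for HET against WT (SE 0.0744, exact permutation test, p = 0.219), 0.0414 CPM for CF against WT (SE 0.0759, exact permutation test, p = 0.729) and -0.0631 CPM for CF against HET (SE 0.0914, exact permutation test, p = 0.513). In earlier-numbered pigs alone, the difference of CF from WT was -0.0460 CPM (exact permutation test, p = 0.00952), at counts of 1 to 2 against 2 to 7, whereas in later-numbered pigs it was 0.147 CPM (exact permutation test, p = 0.524).

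**Figure D4:**
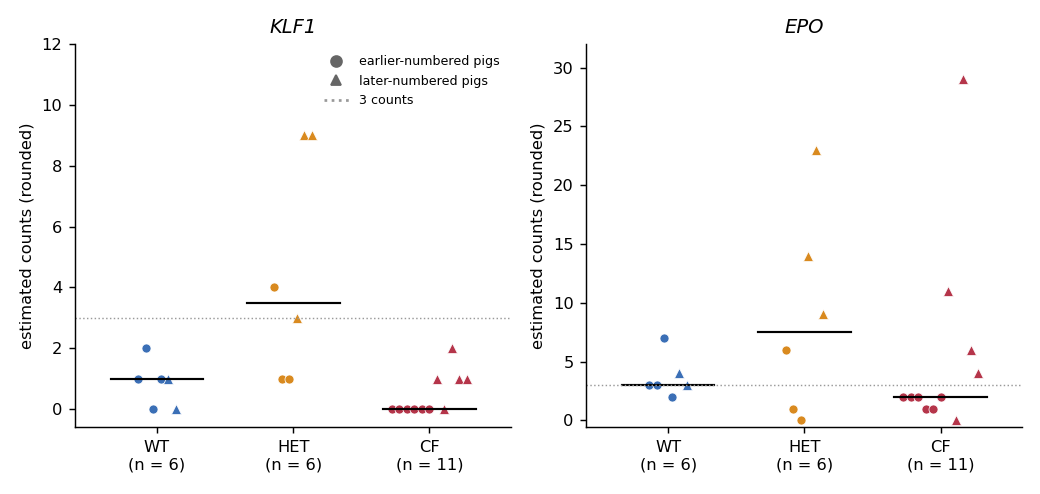
Rounded estimated counts of KLF1 and EPO in each library by genotype label; circles are earlier-numbered and triangles later-numbered pigs, solid bars are medians and the dotted line marks 3 counts. The 3 highest HET libraries for EPO are triangles, as are the HET libraries with 9 counts of KLF1.

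The genes most like EPO over the 23 libraries were HMGN2, RPS12, SSR4, DUSP14 and LOC100512448 (r from 0.73 to 0.75). Within the earlier-numbered pigs their r with EPO fell to between 0.40 and 0.49, and in the later-numbered pigs it was between 0.64 and 0.81. With most libraries at a few counts, such values rest on few reads.

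Over all members, 0 of the 7 tested passed an adjusted p of 0.05 for CF against non-CF in edgeR, where 0.349% of 20921 genes passed. At an unadjusted p under 0.05 there was 1, RHAG, where 13.7% of all genes passed. By DESeq2 1 passed, by limma-voom 0 and by the Mann-Whitney test 0. For CF against WT 0 passed in edgeR (0.349% of all genes did), with 1 at an unadjusted p under 0.05 (RHAG, where 14.1% of all genes passed). For CF against HET 0 passed (0.00% of all genes did), with 1 unadjusted (RHAG, 9.89% of all genes). For HET against WT 0 passed (0.00478% of all genes did), with 1 unadjusted (HBE1, 7.99% of all genes). DESeq2 gave 0 members in each of these pairwise comparisons. In no comparison were the CPM ranges of any of the 9 members separate, which held for 0.00478% of tested genes in CF against non-CF, 0.703% in HET against WT, 0.225% in CF against WT and 0.0765% in CF against HET. The median log2 fold change of the 7 for CF against non-CF was -0.09, against 0.00 for all genes.

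The pairwise log2 fold changes not yet given were likewise within the spread by edgeR. HBB was at 0.40 for CF against WT (SE 0.318, adjusted p = 0.620) and -0.06 for CF against HET (SE 0.313, adjusted p = 0.972). HBE1 was at -0.37 for CF against WT (SE 0.727, adjusted p = 0.870) and 1.43 for CF against HET (SE 0.797, adjusted p = 0.566), where 10 of 11 CF libraries lay above the HET median. ALAS2 was at 0.42 (SE 0.285, adjusted p = 0.553) and -0.21 (SE 0.277, adjusted p = 0.841) in the same comparisons. The HET group thus had the lowest mean CPM of HBE1 and the highest of HBB and ALAS2, without passing a test, and for HBB the sign of CF against HET turned (0.02) without HET 13. HBZ was at 0.02 for HET against WT (adjusted p = 0.992), -0.26 for CF against WT (adjusted p = 0.718) and -0.28 for CF against HET (adjusted p = 0.758). GATA1 was at 0.04 (adjusted p = 0.986), -0.12 (adjusted p = 0.909) and -0.16 (adjusted p = 0.909) in these comparisons, and HEMGN at -0.03 for CF against HET (adjusted p = 0.935).

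**Figure D5:**
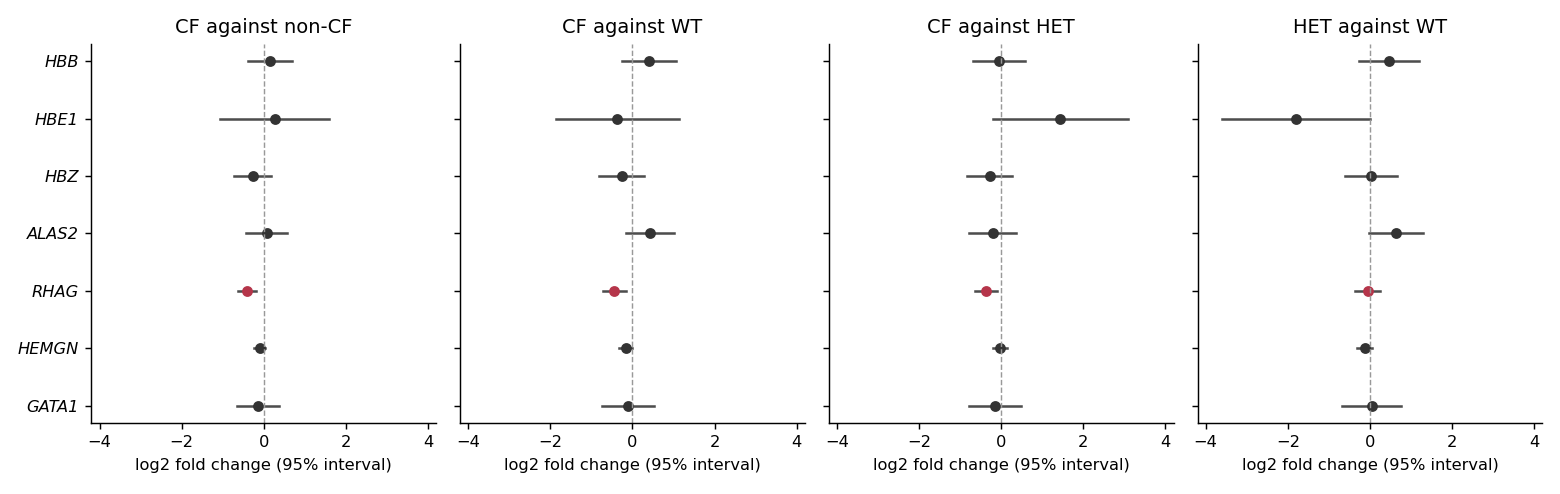
Log2 fold change (points) and 95% interval (lines) of the 7 tested members in the 4 comparisons, from the edgeR fit. The RHAG interval (red point) lies below 0 in each comparison of CF, and the HBE1 interval for HET against WT runs from -3.60 to 0.00.

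Other genes of the red cell programme were read from lists. Of 17 tested genes of the red cell membrane, 0 passed the adjusted threshold for CF against non-CF, 4 had an unadjusted p under 0.05 and lay lower in CF (6.36% of all genes did), and 13 lay below 0 (50.2% of all genes lay below 0), with a median log2 fold change of -0.09. The median of this list was 0.21 for HET against WT, 0.02 for CF against WT and -0.15 with HET as the reference, so it lay below 0 against HET and not against WT. Among the genes lower in CF were ANK1, the ankyrin that ties the membrane to its skeleton (log2 fold change -0.82, SE 0.214, edgeR adjusted p = 0.0752), and KEL (-0.42, SE 0.145, adjusted p = 0.181). HET 19 to 21, which had the 3 highest RHAG values among HET libraries, were also high in EPO, and 9 counts of KLF1 were seen in HET 20 and HET 21.

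Of 11 tested heme synthesis genes 0 passed and 8 lay below 0 for CF against non-CF (50.2% of all genes did), with a median log2 fold change of -0.04 and a smallest adjusted p of 0.307. The heme synthesis median was 0.08 for HET against WT, 0.01 for CF against WT and -0.05 with HET as the reference. Of 9 erythroid transcription factors 0 passed, with LDB1 at 0.19 (SE 0.0571, adjusted p = 0.114). Of 13 genes of red cell iron, enzymes and maturation 0 passed and 11 lay below 0 for CF against non-CF (50.2% of all genes did, median -0.11). The median of this list was 0.09 for HET against WT, -0.02 for CF against WT and -0.17 with HET as the reference. The smallest p among these was that of TFRC, the transferrin receptor (log2 fold change -0.57, SE 0.153, adjusted p = 0.0840). The other listed globin genes included HBQ1 (-0.18, SE 0.0728, adjusted p = 0.269) and HBM (-0.11, SE 0.269, adjusted p = 0.918). None of the annotated erythroid microRNA genes passed the filter on low counts.

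For the hormone's side, all 8 genes of erythropoietin receptor signalling lay above 0 in CF against non-CF (49.8% of all genes did), 3 with an unadjusted p under 0.05 (7.35% of all genes did so), and 0 passed adjustment. SOCS3, a feedback inhibitor of cytokine signalling, had a log2 fold change of 0.75 (SE 0.295, adjusted p = 0.241). SOCS3 was at 56.1 CPM in CF 1, against a median of 9.13 CPM in CF and a range of 5.48 to 12.8 CPM in non-CF libraries. The receptor gene EPOR was at 0.03 (SE 0.0944, adjusted p = 0.934). Of 11 genes that control EPO by oxygen and 10 hypoxia-induced genes, 0 passed, with HIF1A at -0.14 (SE 0.0720, adjusted p = 0.391) and P4HA1 at -0.23 (SE 0.0888, adjusted p = 0.240). Of 8 markers of renal interstitial fibroblasts, 0 passed and the median log2 fold change was 0.01.

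Markers of other blood cells were read beside these values. Of 8 tested leukocyte markers 0 passed and 7 lay below 0 in CF against non-CF (50.2% of all genes did, median -0.37). Their summed level ran from 27.9 to 119 TPM in WT, 13 to 209 TPM in HET and 13.3 to 136 TPM in CF libraries, with no marker at 0 throughout a group. The 6 annotated platelet and megakaryocyte markers summed to 6.29 to 8.80 TPM in WT, 5.28 to 7.11 TPM in HET and 4.15 to 7.61 TPM in CF libraries. Of the 5 tested, 4 lay below 0 for CF against non-CF (50.2% of all genes did) and 0 passed. Of these markers 2 had an unadjusted p under 0.05 and lay lower for CF against non-CF (6.36% of all genes did). For CF against WT 4 had such a p in either direction (14.1% of all genes did), all of them lower in CF. Their part in the RHAG difference was not tested. Of 5 endothelial markers 0 passed, and of 4 markers of renal medulla 0 passed and 4 lay below 0 (50.2% of all genes did, median -0.22).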

How the data were processed

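Total RNA of kidney cortex was sequenced in 23 libraries, 1 per pig, after ribosomal RNA depletion with a stranded kit. The authors quantified reads with kallisto against Sscrofa11.1 transcripts and deposited estimated counts and TPM per transcript, with a table that pairs transcripts with gene symbols. The expected counts of 77689 transcripts were summed per symbol to 26687 genes and rounded to whole numbers (64.0% of transcript values were not whole), and the deposited TPM values were summed in the same way. The depth was 32901281 to 52952273 counts per library.

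Genes were filtered with filterByExpr, scaled by TMM and tested with edgeR 4.0.16 (quasi-likelihood test) in R 4.3.3, with Benjamini-Hochberg adjustment over 20921 genes and a threshold of 0.05. CF was compared with non-CF, and the 3 genotypes pairwise in 1 fit. P-values measure the spread between pigs, which may share litters. Log2 ratios of globin TPM were compared by permutation (exact with under 10 libraries in a group, otherwise 100000 permutations), and members were correlated on log2 CPM with a prior count of 2. Alternatives were DESeq2 1.42.0, limma-voom (limma 3.58.1), an exact Mann-Whitney test, other normalizations and filters, the sets of pig numbers, and each library left out. Permutation tests of KLF1 and EPO were added after the data were seen. In simulated counts for CF against non-CF (20784 genes, 200 changed 2-fold), edgeR recovered 97.0% with 3.48% false calls. DESeq2 recovered 98.0% with 9.68% false calls. The changed genes were drawn from those with a mean above 1 CPM, which leaves out HBZ and GATA1. No split by pig number was simulated, and recovery was not measured for single members such as the variable HBE1.

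Sequences and positions were read from the Sscrofa11.1 assembly and its RefSeq annotation. Members and gene lists were chosen with earlier results of these data known. All 9 members are named in each comparison. Of each list, genes past the threshold are named, or else those with the smallest p (up to 3, for CF against non-CF), along with defining genes. For HBB, RHAG and EPO the 5 genes of highest r are named. Some genes that this rule would name are not reported here.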

Additional observations from a re-analysis of the deposited data

How the results depend on the processing

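None of the 7 tested members reached an adjusted p of 0.05 in edgeR when any single library was left out. Among other settings, DESeq2 called 1 (RHAG) for CF against non-CF, and no setting called a member in the pairwise comparisons. No paired analysis of littermates was possible because the labels give no litter. Numbers of genes past the threshold depended on the tool. For CF against non-CF (73 in edgeR) they were 488 in DESeq2, 46 in limma-voom, 46 in the Mann-Whitney test, 117 with at least 1 CPM in 11 libraries, 148 with the set of pig numbers as a term, 0 in earlier-numbered and 473 in later-numbered pigs, and 17 (without HET 21) to 203 (without CF 4) with single libraries left out. For CF against WT (73) they were 576 in DESeq2, 186 with the set as a term and 20 (without WT 12) to 203 (without CF 4) with libraries left out. For CF against HET (0) they were 65 in DESeq2, 4 with median-of-ratios scaling, 1 without the filter, 5 with the set as a term and 0 to 3 with libraries left out. For HET against WT (1) they were 33 in DESeq2 and 1 to 4 with libraries left out. The cause was not tested.

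Signs turned for the following values. For CF against non-CF, ALAS2 was at -0.01 in limma-voom, and in later-numbered pigs HBB was at -0.02, HBE1 at -0.49, ALAS2 at -0.08 and HEMGN at 0.01. With libraries left out, HBB ran from -0.19 to 0.23, HBE1 from -0.19 to 0.52 and ALAS2 from -0.20 to 0.14, the lowest of each without CF 1. For CF against HET, HBB ran from -0.41 to 0.02 and GATA1 from -0.27 to 0.02, and for CF against WT GATA1 ran from -0.27 to 0.10. For HET against WT, GATA1 was at -0.01 with the set as a term and ran from -0.13 to 0.25, HBZ from -0.18 to 0.21 and RHAG from -0.15 to 0.01. The log2 ratio of HBE1 to HBB for CF against non-CF ran from -0.06 to 0.80. The log2 ratio of HBZ to HBB for CF against HET was -0.12 in earlier-numbered pigs and ran from -0.25 to 0.36. KLF1 for CF against WT was at 0.0112 CPM in later-numbered pigs. EPO was at -0.0355 CPM for HET against WT and -0.0460 CPM for CF against WT in earlier-numbered pigs, and ran from -0.0603 to 0.0174 CPM for CF against non-CF and from -0.00804 to 0.0555 CPM for CF against WT. Depth limited KLF1, EPO, HBZ and GATA1, whose counts stayed at or under 30 in every library.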
